A study of Mus musculus with 24 samples.

Results

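The genes described here are 10 pigment genes of the mouse, chosen by name for their parts in melanin synthesis and in the melanosome, and they are 10 of the 53700 gene identifiers in the count table. They are Tyr, Tyrp1 and Dct, the tyrosinase family of melanin enzymes; Pmel and Mlana, which shape the early melanosome; Oca2, Slc45a2 and Slc24a5, which carry ions and other solutes across the membranes of melanosomes and related organelles; and the receptors Gpr143 and Mc1r. Each was found by its Ensembl identifier in the mouse GENCODE annotation, and all 10 passed the filter on low counts.

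Melanin is made inside melanosomes, organelles related to lysosomes, in which PMEL forms a fibrillar sheet and tyrosinase begins the oxidation of tyrosine that TYRP1 and DCT continue. At the back of the eye 2 cell types carry melanin, the retinal pigment epithelium (RPE), which derives from the neuroectoderm, and the choroidal melanocyte, which derives from the neural crest. The RPE absorbs stray light and takes up the shed outer segments of photoreceptors, and most of its melanosomes are formed early in life. BMAL1 is the transcription factor that, together with CLOCK, drives the molecular circadian clock.

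RNA-seq was carried out on 24 libraries, 1 for each of 3 mice at each of 4 time points in each of 2 genotypes, called RPE Bmal1 WT (below also WT) and RPE Bmal1 KO (below also KO). All mice were C57BL/6 of both sexes and 12 to 16 weeks old, and were kept under 12 h of light and 12 h of darkness, with zeitgeber time (ZT) 0 at light onset and tissue taken at ZT1, ZT7, ZT13 and ZT19. Both genotypes carried floxed Bmal1 alleles and the Rpe-CRE transgenes, in which the Vmd2 promoter of the RPE gene Best1 drives a doxycycline-dependent activator of Cre. The sample records list doxycycline food from postnatal day 60 to 74 for every mouse, whereas the methods of the study give it to RPE Bmal1 KO mice only. The study describes the loss of BMAL1 in the RPE as mosaic, so some RPE cells of these mice keep it. The posterior segment was sonicated to release the RPE, and the material of the 2 eyes of a mouse was pooled. Sex was not recorded per library and entered no model.

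The promoters of Tyr, Tyrp1 and Dct are shown first, because the results open with these enzymes and their promoters hold the M-box core TCATGTG, a motif known in pigment gene promoters as a binding site of MITF. For Tyr and Dct the sequence is the 250 bases before the start of the gene in RefSeq (GRCm38.p6, the assembly that mm10 names), and for Tyrp1 it is the core with 11 bases on each side, all read 5′ to 3′ on the strand of the gene, with TCATGTG on either strand in capitals. They lie at chr7:87493513-87493762 on the minus strand for Tyr, chr4:80834155-80834183 on the plus strand for Tyrp1 and chr14:118052247-118052496 on the minus strand for Dct.
Tyr: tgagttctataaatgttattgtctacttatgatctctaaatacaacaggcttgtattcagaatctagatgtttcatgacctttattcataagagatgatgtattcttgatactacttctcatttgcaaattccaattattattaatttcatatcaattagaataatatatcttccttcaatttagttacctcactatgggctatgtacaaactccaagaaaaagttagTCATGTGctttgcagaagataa
Tyrp1: tggggagggagTCATGTGctgcctagtag
Dct: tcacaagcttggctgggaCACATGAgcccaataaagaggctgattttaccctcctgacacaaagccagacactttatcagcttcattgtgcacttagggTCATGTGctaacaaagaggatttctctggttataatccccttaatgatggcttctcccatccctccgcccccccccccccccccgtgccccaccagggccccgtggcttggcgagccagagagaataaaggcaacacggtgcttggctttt
Counted from the RefSeq starts, the core began 22 bases before the start in Tyr and 47 bases before it in Tyrp1, and in both it lay within the longer M-box, the core with AG before it and CT after it. The GENCODE interval of Tyrp1 begins upstream of its RefSeq start, so this core lies before the start in RefSeq and inside the gene in GENCODE. In Dct it began 151 bases before the start, and a second copy on the opposite strand lay 232 bases before it.

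The RefSeq table used here, which spans 250 bases before to 50 bases after each start, held promoters of 6 of the 10 genes (Tyr, Tyrp1, Dct, Oca2, Slc24a5 and Mc1r). TCATGTG on either strand stood in 5 of the 6, all but Oca2, and in 3.772% of the 32851 promoters of that length. The longer M-box, which contains TCATGTG, stood in 2 of the 6 and in 7 of the 32851. CACGTG, the E-box core to which CLOCK and BMAL1 bind, stood in none of the 6 and in 7.15% of all promoters. These matches describe the letters of the windows only.

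Before the results, the state of the libraries has to be given. Total counts ran from 2069527 to 10572612 with a median of 7000040.5, and mitochondrially encoded genes took 3.86% to 41.7% of them. In 5 libraries, replicate 1 of WT at ZT7 and at ZT19, and replicate 1 of KO at ZT1, at ZT7 and at ZT13, the olfactory and vomeronasal receptor genes, which the tissue should hardly transcribe, summed to 687 to 3470 CPM, the count scaled to the total of the library, against 76.8 to 349 CPM in the other 19. These are called the receptor-rich libraries, and results are also given without them. They are also the 5 with the lowest total counts, 2069527 to 4363712, against at least 4830420 in the other 19. In results without them, receptor reads and low depth cannot be told apart. The targeted gene, Arntl (Bmal1), had 42.2 ± 22.8 CPM in the WT libraries and 49.4 ± 26.5 CPM in the KO libraries (SD, n = 12 each), with overlap over all times. At ZT1 every KO library (81.1 to 88.6 CPM) lay above every WT library (46.2 to 77.9 CPM), as in 9.84% of all genes, which is against the direction of a loss. The averaged log2 difference was 0.17 (SE 0.23, edgeR quasi-likelihood adjusted p = 0.96). The count covers the whole gene, in tissue that also holds choroid, retina and sclera and, by the markers below, muscle. Only the floxed stretch is lost, and only in RPE cells. The count thus does not check the genotype labels, and the groups are called here as the labels call them. The markers of the RPE were present, led by Rgr, the opsin-like protein of the visual cycle, at 1088 ± 339 CPM (SD, n = 24), Ttr at 239 ± 89.5 CPM and Rpe65, the visual cycle isomerase, at 140 ± 59.5 CPM. Markers of melanocytes were present as well, with Kit, their growth factor receptor, at 140 ± 28.4 CPM and Ednrb at 175 ± 53.7 CPM. Sox10, which Schwann cells also express, stood at 97.7 ± 25.4 CPM. Of the same list, Pax3 had 8.86 ± 3.36 CPM and Foxd3 2.70 ± 1.25 CPM. The 10 muscle markers summed to 8667 to 58708 CPM in WT libraries and to 8900 to 42019 CPM in KO libraries. The 9 lens markers, a list that also holds the keratins Krt5, Krt12 and Krt14, summed to 5053 to 16001 CPM. Every library thus held more of each list than the 883 to 2367 CPM of the 10 pigment genes together.

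Tyrp1, Pmel and Dct were the most abundant of the pigment genes per length. On the scale of CPM per kilobase of exon, Tyrp1 (chr4:80834123-80851719, mm10) stood at 145 ± 36.9 (SD, n = 24) and Pmel (chr10:128704195-128720238) at 140 ± 45.7. Tyrp1 was above Pmel in only 14 of 24 libraries, so the order of these neighbours was not settled. Dct (chr14:118012790-118052244), which converts dopachrome, followed at 83.6 ± 21.9 and was below Pmel in 24 of 24 libraries. With the longest transcript in place of merged exons the means were 151 for Tyrp1, 151 for Pmel and 142 for Dct, so the order was kept for Dct and the gap was smaller.

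Below this group came the other melanosome genes and Tyr. Mlana (chr19:29697824-29708634), which helps PMEL mature, had 27.3 ± 6.73 CPM per kilobase and exceeded Tyr in 23 of 24 libraries. Tyr (chr7:87424771-87493512), the first and rate-limiting enzyme, had 16.2 ± 4.74 and exceeded Slc24a5 in 15 of 24 libraries. Slc24a5 (chr2:125068124-125088677), a potassium-dependent sodium and calcium exchanger, had 14.5 ± 3.41, and 921 bases of its exons overlap exons of Myef2 on the other strand. Neither the labels nor the methods say whether reads were counted by strand, so a share of those reads may belong to Myef2. For Pmel the overlap is smaller, at most 105 bases, with Dgka. The melanosomal transporter Slc45a2 (chr15:11000721-11029233) had 10.2 ± 2.20 and the anion channel Oca2 (chr7:56239760-56536518) 6.24 ± 1.53, and Slc45a2 was above Oca2 in 24 of 24 libraries.

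The receptors were the least abundant. Gpr143 (chrX:152781921-152808646), an intracellular receptor of melanosomes that is mutated in ocular albinism in humans, had 4.37 ± 1.31 CPM per kilobase. Mc1r (chr8:123407107-123410744), the melanocortin receptor of melanocytes, had 0.288 ± 0.220 and was below Gpr143 in 24 of 24 libraries. Its counts were 1 to 18 per library and 159 in all, and 653 bases of its single exon overlap Gm38092 on the other strand, so its values carry the largest counting error. The 10 genes together made up 883 to 2367 CPM of a library. In this bulk tissue fewer pigmented cells and less RNA per cell cannot be told apart.

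**Figure D1:**
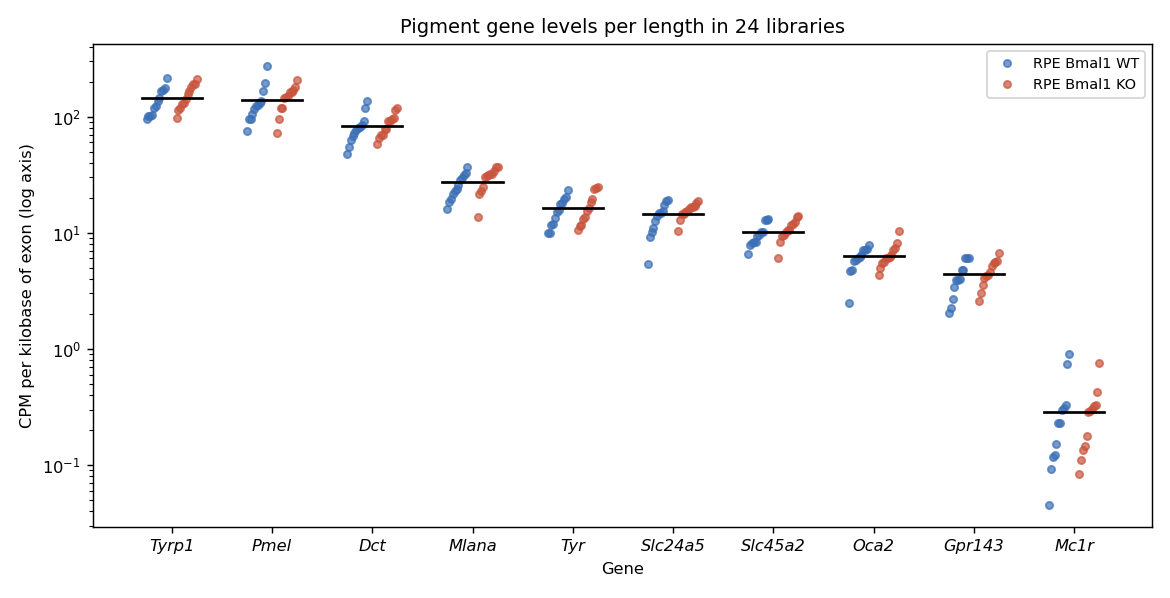
Level of each pigment gene in CPM per kilobase of exon (log axis) in 12 RPE Bmal1 WT (blue) and 12 RPE Bmal1 KO (red) libraries, each point a library and each bar the mean of 24. Tyrp1 and Pmel are highest at means of 145 and 140, and Mc1r is lowest at 0.288.

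The first comparison asked whether the pigment genes varied over the day. Dct had the smallest p of the 10. Its WT libraries held, in CPM, 701, 404 and 806 (ZT1), 280, 322 and 483 (ZT7), 497, 428 and 452 (ZT13) and 373, 541 and 472 (ZT19). Its KO libraries held 543, 695 and 563 (ZT1), 341, 414 and 390 (ZT7), 670, 407 and 460 (ZT13) and 571, 544 and 465 (ZT19). In both genotypes ZT1 had the highest mean and ZT7 the lowest. In KO every ZT1 library lay above every ZT7 library, as in 4.89% of all genes, and every ZT19 library lay above every ZT7 library, as in 2.2%, while the WT groups at ZT1 and ZT7 overlapped. Over both genotypes the mean was 619 ± 143 CPM at ZT1 and 372 ± 72.6 CPM at ZT7 (SD, n = 6), a 1.66-fold range.

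None of the 10 genes passed the time test over both genotypes after adjustment across all 24965 genes tested, by edgeR's quasi-likelihood F-test with genotype in the model, and 0.0361% of all genes did. At an unadjusted p under 0.05 there were 4 of 10, against 3.11% of all genes. These were Dct (edgeR adjusted p = 0.75) and Mlana, Tyrp1 and Gpr143 (adjusted p = 1.00 each). The count was 7 without replicate 3 of WT ZT7, 2 without replicate 3 of WT ZT1 and 2 with scaling by library size alone. With DESeq2 in place of edgeR the adjusted p of Dct was 0.0356, the single value under the threshold among its 36 alternatives, whose adjusted p reached 1.00. The pigment genes vary together across libraries, so their counts are not independent observations.

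Mlana had its lowest levels at ZT7 as well. Its KO libraries held 14.5, 22.6 and 24.1 CPM at that time, against 32.1, 39.3 and 34.2 (ZT1), 36.3, 26.2 and 32.5 (ZT13) and 33, 34.1 and 38.7 (ZT19). Every ZT7 library thus lay below every other library of the genotype, and 4.89%, 2.86% and 2.2% of all genes had ZT7 apart in this way from ZT1, ZT13 and ZT19. In WT its libraries held 39.1, 24.4 and 34.5 CPM (ZT1), 19.6, 22.7 and 25.2 (ZT7), 31.5, 20.6 and 27 (ZT13) and 17, 30.1 and 32.9 (ZT19), and all these groups overlapped ZT7.

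Tested within KO, Mlana was the 1 of 10 genes with an unadjusted p under 0.05 (edgeR adjusted p = 1.00), against 2.06% of all genes, and 0 of 10 were called, against 0.00801%. Leaving out replicate 1 of KO ZT7, a receptor-rich library with the lowest Mlana value, took this count to 0. Within WT the 1 gene was Gpr143 (edgeR adjusted p = 1.00), against 2.47% of all genes, and 0 of 10 were called, as were 0 of all genes. That count was 0 without replicate 3 of ZT1, replicate 1 of ZT13 or replicate 2 of ZT13, 2 without replicate 2 of ZT19 and 4 without replicate 3 of ZT7.

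Gpr143 held in WT 7.99, 12 and 12.2 CPM (ZT1), 5.34, 9.44 and 12.2 (ZT7), 4.45, 4.06 and 6.8 (ZT13) and 7.77, 7.84 and 9.55 (ZT19). Its ZT13 libraries lay below every ZT1 library, as in 4.99% of all genes, and below every ZT19 library, as in 3.8%, and the mean at ZT1 was 2.1-fold that at ZT13. In KO it held 11.1, 11.3 and 10.2 CPM (ZT1), 13.3, 10.9 and 6.04 (ZT7), 9.13, 8.71 and 8.16 (ZT13) and 8.48, 7.13 and 5.18 (ZT19). There every ZT1 library lay above every ZT13 library (3.25% of all genes) and every ZT19 library (4.09% of all genes), and the lowest mean was at ZT19.

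Tyrp1 had the same order of means as Dct between ZT1 and ZT7. Its KO libraries held 506, 543 and 445 CPM (ZT1) and 399, 362 and 274 CPM (ZT7). These do not overlap, with ZT1 above ZT7 as in 4.89% of all genes. The WT libraries held 476, 385 and 610 CPM (ZT1) and 287, 268 and 410 CPM (ZT7), which do overlap. Over both genotypes the ZT1 mean was 1.48-fold the ZT7 mean.

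Tyr, the enzyme on which the pathway depends, had WT libraries of 140, 144 and 166 CPM (ZT1), 71.2, 84 and 125 (ZT7), 111, 108 and 95.7 (ZT13) and 70.4, 128 and 83.3 (ZT19). Every ZT1 library was above every library of the other time points of that genotype, which 4.85% of all genes showed for ZT7, 4.99% for ZT13 and 2.94% for ZT19. The time test within WT did not call Tyr (edgeR adjusted p = 1.00). In KO the group means of Tyr ran from 112 to 129 CPM with SDs of 15.2 to 51.4 CPM. The test of the difference between these courses was not passed (edgeR interaction, adjusted p = 1.00), so a difference in course was not shown.

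The remaining genes were also apart at some times. Over both genotypes the mean of Pmel was 400 ± 121 CPM (ZT1) and 287 ± 118 CPM (ZT7) (SD, n = 6). In KO the ZT1 libraries of Pmel lay above every ZT19 library, as in 4.09% of all genes. At ZT1 and ZT7 over both genotypes Slc24a5 had 39.7 ± 3.71 and 29.8 ± 11.4 CPM, and Oca2 27.2 ± 3.28 and 20.5 ± 6.77 CPM. In WT both had every ZT1 library above every ZT13 library (4.99% of all genes) and every ZT19 library (2.94%). Slc45a2 had 34.2 ± 4.94 CPM (ZT1) and 34.3 ± 5.61 CPM (ZT19), with lower means of 26.9 ± 7.06 CPM (ZT7) and 26.7 ± 5.26 CPM (ZT13). In WT its ZT1 and ZT19 libraries lay above every ZT13 library, as in 4.99% and 3.8% of all genes. In KO its ZT1 libraries lay above every ZT7 library, as in 4.89% of all genes.

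Counted by the position of the highest mean, 8 of 10 genes peaked at ZT1 over both genotypes, all but Slc45a2 and Mc1r, against 18.8% of all genes. The lowest mean was at ZT7 in 6 of 10, against 29.5%. Within WT the highest mean was at ZT1 in 8 of 10 (20.9% of all genes) and the lowest at ZT7 in 6 of 10 (30.4%) and at ZT13 in the other 4 (27%). Within KO the highest mean was at ZT1 in 6 of 10 (32.7%) and the lowest at ZT7 in 8 of 10 (29.6%). In WT every ZT1 library was above every ZT13 library in 7 of 10 genes (Tyr, Tyrp1, Oca2, Slc45a2, Slc24a5, Gpr143 and Mc1r), against 4.99% of all genes, and with scaling by library size alone in 3 of 10, against 2.06%. In KO every ZT1 library was above every ZT7 library in 5 of 10 genes (Tyrp1, Dct, Mlana, Slc45a2 and Mc1r), against 4.89%. Without the receptor-rich libraries, which leaves 2 libraries in each of those KO groups, the last count was 8 of 10, against 16.7%, and the count of genes highest at ZT1 was 8 of 10, against 24.4%. The mean of the RPE markers was also highest at ZT1 in WT, at 6.03 ± 0.09 log2 CPM against 5.55 ± 0.70 (ZT7), but in KO it was highest at ZT13, at 6.05 ± 0.16 against 5.85 ± 0.19 (ZT1), each with its SD over 3 mice. The melanocyte markers other than Mc1r in WT were at 5.52 ± 0.06 log2 CPM (ZT1), with every ZT1 library above every ZT13 library (mean 5.14 ± 0.33) and every ZT19 library (mean 5.32 ± 0.10), whereas in KO their lowest mean was at ZT1 (5.19 ± 0.18). The part of melanocyte content in the time course was not tested. With the mean of the RPE markers added to the model, 4 of 10 pigment genes had an unadjusted p under 0.05 over both genotypes. Dct, Mlana and Gpr143 were among these 4 and Tyrp1 was not. The share of all genes under 0.05 in that model was not recorded, so the 4 were not set against it. There 0 of 10 pigment genes were called, and Dct had an edgeR adjusted p = 0.80.

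**Figure D2:**
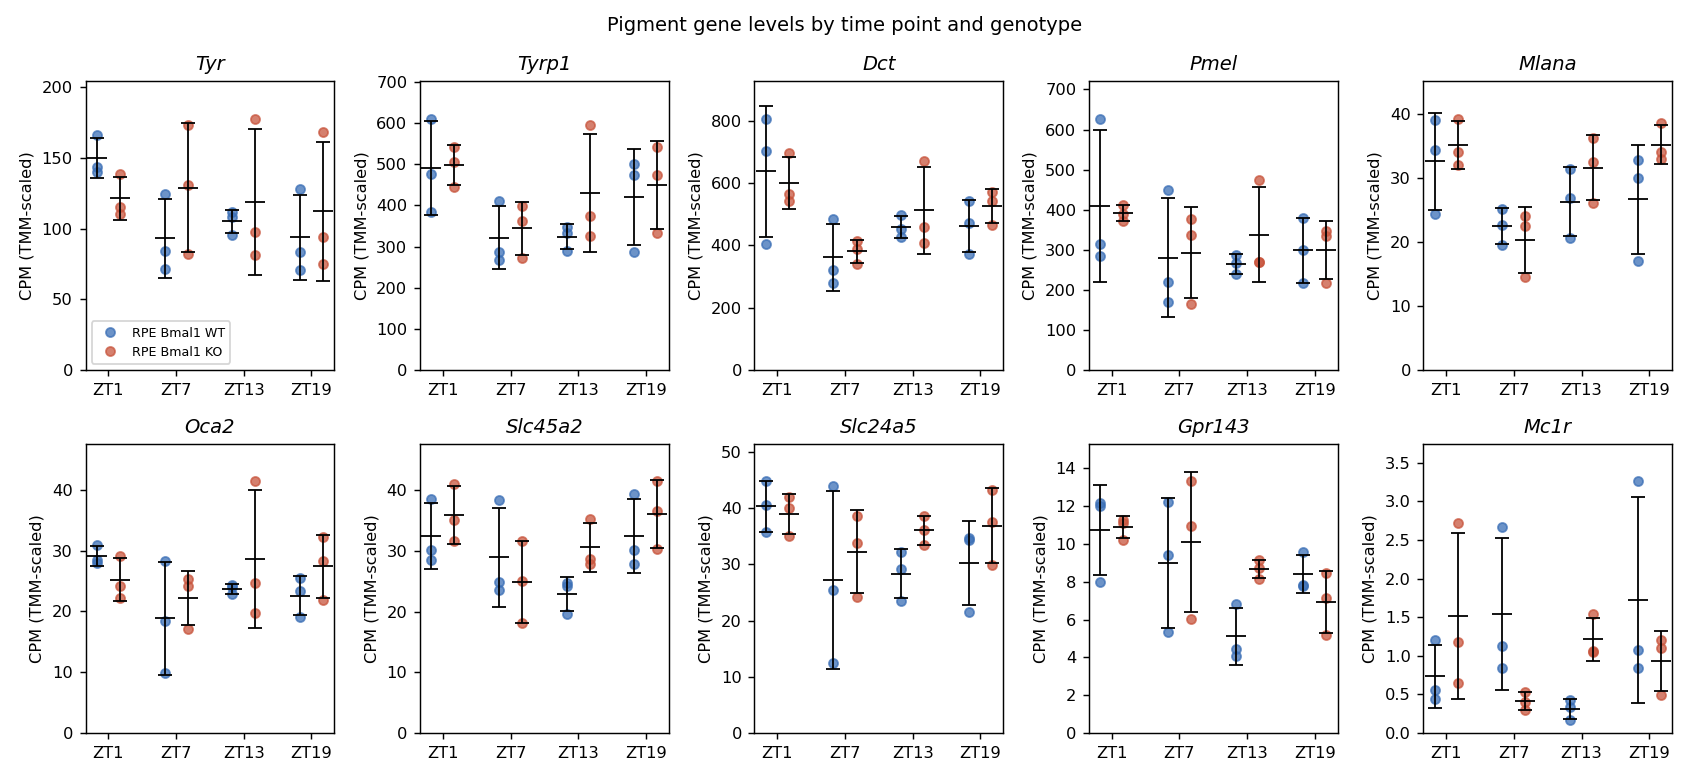
CPM of each pigment gene (TMM-scaled) at ZT1, ZT7, ZT13 and ZT19 in RPE Bmal1 WT (blue) and RPE Bmal1 KO (red), each point a library and the bars mean ± SD of 3 mice. Dct and Mlana are lowest at ZT7 in both genotypes, and Mc1r at ZT7 and ZT13 shows the genotypes apart in opposite directions.

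The second comparison was between genotypes. By the methods of the study only RPE Bmal1 KO mice had the doxycycline diet, so diet and loss of Bmal1 cannot be told apart here. Averaged over the 4 time points and tested with edgeR, 0 of 10 genes were called, as were 0 of all genes, and 0 of 10 had an unadjusted p under 0.05, against 6.34% of all genes. The log2 difference, RPE Bmal1 KO minus RPE Bmal1 WT, was above 0 in 10 of 10, against 41.5% of all genes, with a median of 0.12 against -0.04 for all genes. The differences ran from 0.08 (SE 0.13) for Dct to 0.19 (SE 0.14) for Slc24a5, each within 2 standard errors of 0. Without the receptor-rich libraries the difference was above 0 in 4 of 10 only, and Tyr stood at -0.14 and Pmel at -0.17. The share of all genes above 0 without them was not recorded. Of those 5 libraries 3 are KO and 2 are WT. Scaling by library size alone moved the median of all genes to 0.16 and that of the pigment genes to 0.32, and 10 of 10 stayed above the median of all genes. Markers of rods stood higher in KO in 12 of 12 genes, with a median log2 difference of 1.04 and an unadjusted p under 0.05 in 11, though 0 were called. With the mean of the rod markers in the model, 0 of 10 pigment genes had an unadjusted p under 0.05 for the averaged difference, and the part of rods in single values was not tested. Schwann cell markers stood lower in KO in the median library (5.63 against 6.14 mean log2 CPM), as did muscle markers (7.54 against 8.66), and their part was not tested either.

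**Figure D3:**
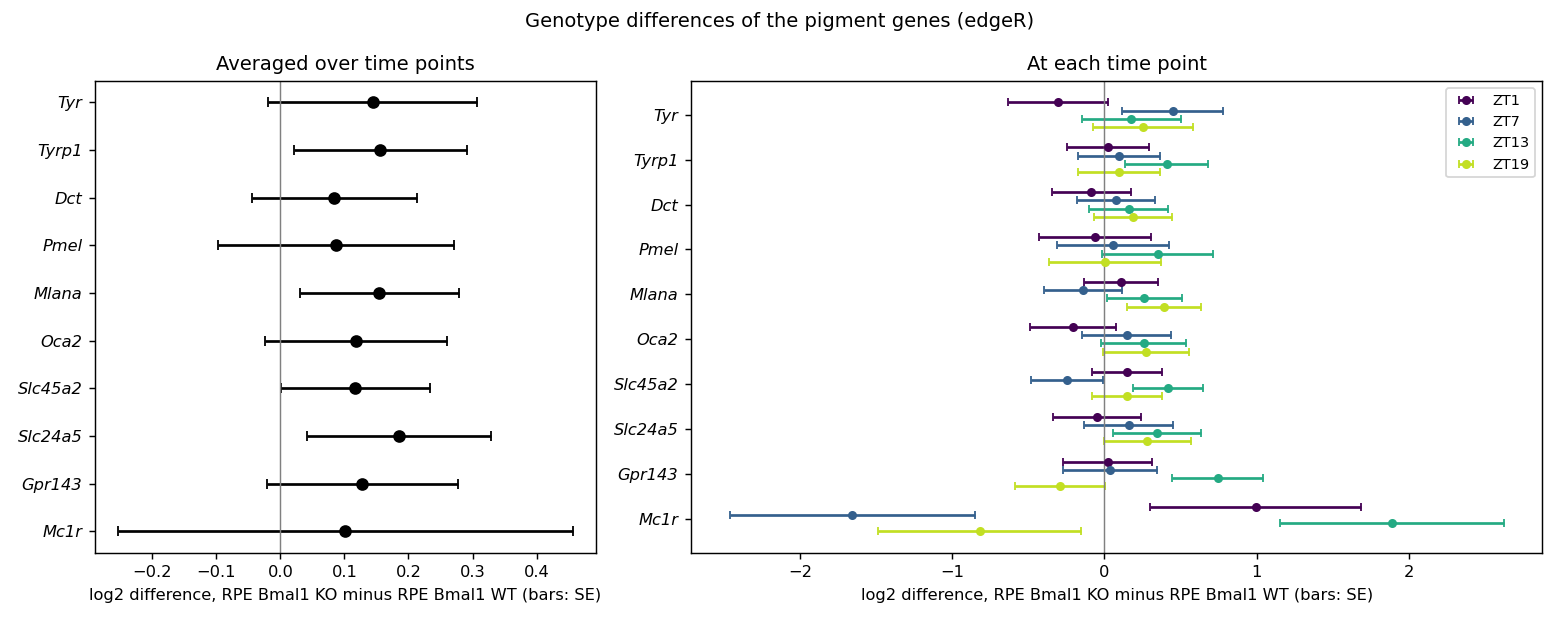
Log2 difference of each pigment gene, RPE Bmal1 KO minus RPE Bmal1 WT, with standard errors from edgeR, averaged over time points (left) and at each time point (right). The averaged differences lie between 0.08 and 0.19, and the differences of Mc1r reach 1.89 at ZT13 and -1.66 at ZT7.

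At single time points 0 of 10 genes were called, as were 0 of all genes, at ZT1, ZT7, ZT13 and ZT19. At an unadjusted p under 0.05 there were 0 of 10 at ZT1, ZT7 and ZT19, against 9.99%, 4.32% and 2.36% of all genes, and 2 of 10 at ZT13, Gpr143 and Mc1r, against 0.609%. Log2 differences were above 0 in 5, 7, 10 and 8 of 10 genes at ZT1, ZT7, ZT13 and ZT19, against 48.7%, 45.2%, 46% and 44.7%. The count at ZT7 fell to 1 of 10 without the receptor-rich libraries and to 2 of 10 without replicate 1 of RPE Bmal1 WT ZT7, the library with 41.7% mitochondrial counts. At ZT1 it was 10 of 10 with scaling by library size alone and 3 of 10 without replicate 2 of WT ZT1, and at ZT19 it was 5 of 10 without replicate 1 of KO. The shares of all genes above 0 in these alternatives were not recorded, and the shares given belong to the main fits. Tyr at ZT1 and Mc1r at ZT7 had every KO library below every WT library, as in 10.9% and 3.83% of all genes, and Mlana at ZT19 had every KO library above, as in 2.2%.

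ZT13 was the time point at which the pigment genes stood furthest apart, with a median log2 difference of 0.35 against -0.02 for all genes. Every RPE Bmal1 KO library was above every RPE Bmal1 WT library in 4 of 10 genes, Slc45a2, Slc24a5, Gpr143 and Mc1r, against 2.04% of all genes. The count was 7 of 10 with scaling by library size alone, against 6.63%, and 4 of 10 without the receptor-rich libraries, against 7.88%. Gpr143 held 9.13, 8.71 and 8.16 CPM in the KO libraries against 4.45, 4.06 and 6.8 CPM in the WT libraries, a log2 difference of 0.74 (SE 0.30, edgeR adjusted p = 1). Slc45a2 held 35.2, 28.7 and 27.9 CPM against 24.7, 19.6 and 24.2 CPM, a log2 difference of 0.42 (SE 0.23, edgeR adjusted p = 1). The RPE markers moved the same way at ZT13, with 12 of 14 higher in RPE Bmal1 KO and a median log2 difference of 0.40, and 0 of 14 had an unadjusted p under 0.05. With the mean of the RPE markers in the model Gpr143 had a log2 difference of 0.63 (edgeR adjusted p = 1). Leaving out a single library took the number of pigment genes under 0.05 at ZT13 to 0 without replicate 1 of RPE Bmal1 WT and to 1 without its replicate 2 or without replicate 2 of RPE Bmal1 KO.

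Mc1r gave the largest differences and the smallest counts. At ZT13 the RPE Bmal1 KO libraries held 5, 18 and 11 reads, or 1.06, 1.54 and 1.04 CPM, and the RPE Bmal1 WT libraries 1, 2 and 4 reads, or 0.165, 0.338 and 0.425 CPM. At ZT7 the order was turned, with 1, 3 and 3 reads in RPE Bmal1 KO, or 0.403, 0.529 and 0.302 CPM, and 3, 5 and 7 reads in RPE Bmal1 WT, or 2.67, 1.12 and 0.837 CPM. In CPM the genotypes do not overlap at either time point, though at ZT7 both had a library with 3 reads. Within WT every ZT7 library was above every ZT13 library, as in 4.33% of all genes. The log2 difference was 1.89 at ZT13 (SE 0.74, edgeR adjusted p = 1) and -1.66 at ZT7 (SE 0.81, adjusted p = 0.93).

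The test of a genotype by time difference called 0 of 10 genes, as it did 0 of all genes, and Mc1r alone had an unadjusted p under 0.05 (edgeR adjusted p = 1.00), against 2.06% of all genes. At ZT1 Mc1r held 0.551, 1.2 and 0.44 CPM in the WT libraries and 2.72, 0.649 and 1.18 in the KO libraries. At ZT19 it held 3.26, 0.84 and 1.07 CPM in the WT libraries and 1.1, 1.2 and 0.489 in the KO libraries, with overlap at both times. The highest value at ZT1, ZT7 and ZT19 was in each case from a receptor-rich library. Without these libraries the log2 difference was 1.95 at ZT13 and -1.25 at ZT7.

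Across the 24 libraries the pigment genes other than Mc1r varied together. The 36 pairs among those 9 genes had Pearson r of log2 CPM from 0.01 to 0.85 with a median of 0.64, given as a description since the libraries share depth and tissue content. The closest pairs were Tyrp1 with Pmel and Tyrp1 with Dct, both at 0.85, and Oca2 with Slc24a5 at 0.84. Mlana and Gpr143 were the least alike of the 9, at 0.01, and the 9 pairs with Mc1r had a median of -0.13. Against the mean of the other 9 genes, Tyrp1 had the highest r at 0.91, Mlana had 0.47 and Mc1r -0.11.

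**Figure D4:**
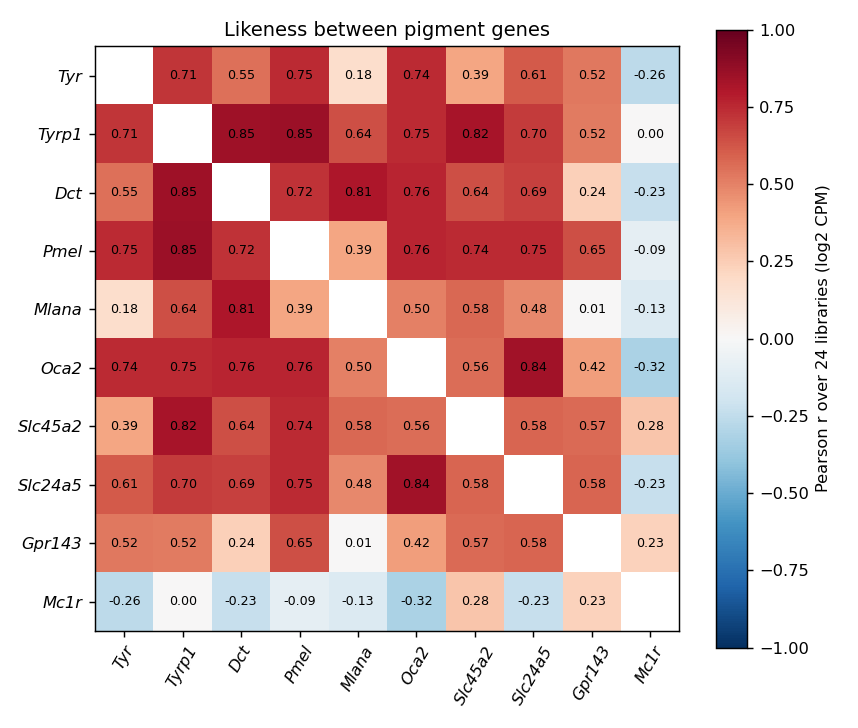
Pearson r of log2 CPM over 24 libraries between each pair of pigment genes, from blue (negative) to red (positive). The pairs without Mc1r lie between 0.01 and 0.85, and the row of Mc1r between -0.32 and 0.28.

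Marker lists of the tissues in the dissection were then set against the mean log2 CPM of the 10 genes, as 10 relations over 24 libraries with permutation tests. The melanocyte markers other than Mc1r (6 genes) gave r = 0.60 (permutation p = 0.00192, adjusted p = 0.0096) and rho = 0.50 (permutation p = 0.014, adjusted p = 0.0466), with r = 0.41 without the 2 libraries farthest from the median. Within genotypes r was 0.75 for WT and 0.53 for KO. Taken singly over the 24 libraries, r was 0.69 for Mlph, 0.54 for Ednrb, 0.53 for Pax3 and 0.47 for Kit. It was 0.01 for Sox10 and -0.11 for Foxd3. The RPE markers (14 genes) gave r = 0.49 (permutation p = 0.0152, adjusted p = 0.0498) and rho = 0.39 (permutation p = 0.0581, adjusted p = 0.145), and r was 0.32 without the 2 farthest libraries. Here r was 0.74 for WT and -0.06 for KO, so the relation with the mean of the RPE markers did not hold within the KO libraries. Taken singly over the 24 libraries, r was 0.62 for Rpe65, 0.61 for Rdh5, 0.57 for Mertk and 0.53 for Rgr. It was -0.16 for Krt8 and -0.19 for Best1, which had means of 1.86 and 2.18 CPM. The rest lay between 0.18 (Cst3) and 0.49 (Ttr).

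The other lists divided by sign. Schwann cell markers (9 genes, of which Sox10 is also in the melanocyte list) gave r = -0.62 (permutation p = 0.00151, adjusted p = 0.0096) and rho = -0.63 (permutation p = 0.00125, adjusted p = 0.0125), with -0.64 without the 2 farthest libraries, -0.54 within WT and -0.63 within KO. Fibroblast markers (10 genes) gave r = 0.47 (permutation p = 0.0199, adjusted p = 0.0498) and rho = 0.51 (permutation p = 0.0124, adjusted p = 0.0466), with 0.42 without the 2 farthest libraries, 0.25 within WT and 0.81 within KO. Rod, endothelium, muscle, macrophage, lens and ciliary markers had adjusted permutation p of 0.154 to 0.812 with r between -0.37 and 0.14. Among them the genotypes differed in sign for muscle (0.13 for WT, -0.65 for KO), endothelium (0.45 and -0.46) and lens (-0.42 and 0.19). That difference was not tested. The lens list (9 genes) also holds the keratins Krt5, Krt12 and Krt14, known from cornea and skin, so its r is not that of lens genes alone. Without the receptor-rich libraries r was 0.66 for melanocyte, 0.45 for RPE, -0.48 for Schwann cell, 0.62 for fibroblast and 0.50 for macrophage markers, the last against -0.07 over all libraries. The share of each tissue in the level of a pigment gene was not tested.

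**Figure D5:**
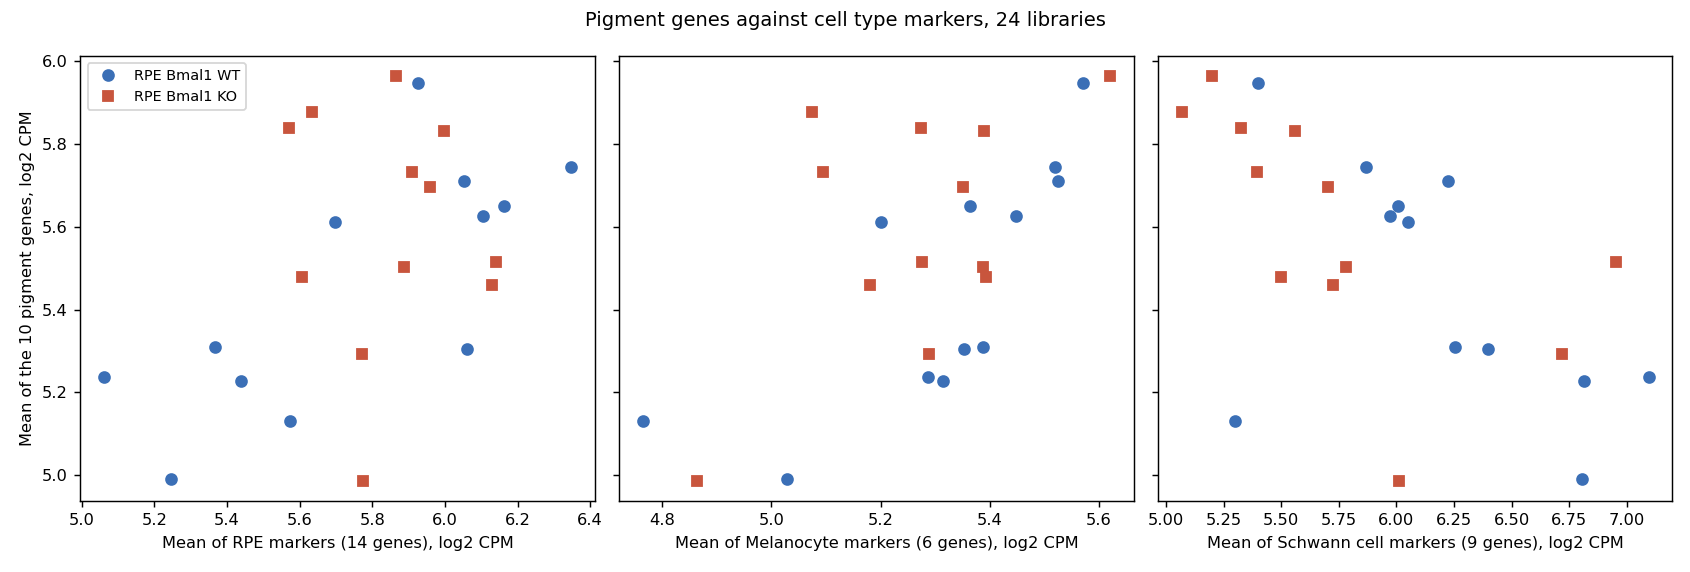
Mean log2 CPM of the 10 pigment genes against the mean log2 CPM of the RPE, melanocyte and Schwann cell markers in 24 libraries (blue circles RPE Bmal1 WT, red squares RPE Bmal1 KO). The points rise with the melanocyte markers (r = 0.60) and fall with the Schwann cell markers (r = -0.62), and with the RPE markers they rise in RPE Bmal1 WT only.

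Of 22364 other genes whose mean reached 1 CPM, those most like the mean of the pigment genes over the 24 libraries were Fat4 (r = 0.79), Cpxm2 (r = 0.79), Cdh11 (r = 0.78), Tmem72 (r = 0.78), Crispld2 (r = 0.77), Itpr1 (r = 0.77), Gpnmb (r = 0.76), the antisense gene 1700109G14Rik (r = 0.76), Thbs4 (r = 0.76) and Bace2 (r = 0.75). Of these Gpnmb, a melanosomal membrane glycoprotein related to Pmel, belongs to the pathway lists used here. The median r of all those genes was -0.02. The order depended on the libraries and on the group means. Without the receptor-rich libraries these 10 genes had ranks from 5 (1700109G14Rik) to 42 (Crispld2), with Fat4 at 33, and by deviations from group means ranks from 7 (Tmem72) to 451 (Bace2).

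Other genes of the pigment pathway were taken from 4 lists and none was called in any of the 9 tests. Of the 23 genes of melanosome biogenesis and cargo sorting, 3 had an unadjusted p under 0.05 over time in both genotypes, against 3.11% of all genes, Rab38 (edgeR adjusted p = 0.75), Rab32 and Gpnmb (adjusted p = 1.00 each). There was 1 within WT (Bloc1s2, a subunit of the BLOC-1 sorting complex), 1 within KO (Rab38) and 1 for the genotype by time difference (Bloc1s2), against 2.47%, 2.06% and 2.06%. For genotype at ZT1 there were 3, against 9.99%, and their log2 differences had opposite signs. These were -0.70 for Snapin, -0.52 for Bloc1s6 and 0.79 for Bloc1s2 (edgeR adjusted p of 0.35 to 0.42). For the averaged genotype difference there was 1 (Lyst, the lysosomal trafficking regulator), a share below the 6.34% of all genes. Rab38, a small GTPase that routes tyrosinase-family enzymes to melanosomes, had WT means of 20.4 ± 4.44 CPM (ZT1) and 12.5 ± 2.34 CPM (ZT13), and KO means of 20.7 ± 1.22 and 12.6 ± 1.67 CPM (SD, n = 3). In both genotypes the ZT1 libraries of Rab38 lay above every ZT13 library, as in 4.99% of all genes for WT and 3.25% for KO. Gpnmb had WT means of 361 ± 64.1 CPM (ZT1) and 241 ± 55.8 CPM (ZT19).

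Of the 10 genes for other melanosomal ions, copper and pH, 2 had an unadjusted p under 0.05 between genotypes averaged over time, against 6.34% of all genes. Slc24a4, an exchanger related to Slc24a5, had a log2 difference of 0.89 (SE 0.28, edgeR adjusted p = 0.75), with 18 to 33.5 CPM in KO at ZT1 against 3.43 to 5.87 CPM in WT, apart as in 9.84% of all genes, and overlap at the other time points. Tpcn2, an endolysosomal cation channel, had a log2 difference of -0.27 (SE 0.12, edgeR adjusted p = 0.76). Of the 10 genes of melanosome movement and tethering, and of the 17 tested regulators out of 19, 0 had an unadjusted p under 0.05 over time or for the averaged genotype difference. Among the regulators Mitf, the transcription factor of the M-box, had a log2 difference of 0.01 (SE 0.12) and Otx2, a factor of RPE identity, one of 0.25 (SE 0.19, edgeR adjusted p = 0.87).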

How the data were processed

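RNA was extracted from the sonicated RPE and sequenced in pairs after ribosomal RNA depletion. Per the methods of the study, alignment was to mm10 with Bowtie2 and counting was with HTSeq-count. The submitters' processing notes list Bowtie2 2.3.4 and HTSeq 0.9.1, and the methods name another version of Bowtie2. The authors deposited raw counts for each gene, not scaled for depth. The use of strand in counting is not given in the sources used here. The columns are headed cont or dox, read as RPE Bmal1 WT and RPE Bmal1 KO from the methods of the study, since the sample records list doxycycline for every mouse. A further 11 columns, with values in 30 rows, were not used. Of the 53700 identifiers, 52093 matched GENCODE vM21.

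The 10 genes, the lists and the alternatives were chosen with earlier results of these data known. Besides the 10 genes, the text names markers of the RPE and of melanocytes, up to 4 genes of each pathway list with the smallest unadjusted p under 0.05, and the 10 genes most like the mean of the pigment genes. Lyst, Snapin, Bloc1s6, Mitf and Otx2 were named after their values were seen.

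The filter was edgeR's filterByExpr with the 8 groups and a count minimum of 10, and 24965 genes passed. Differences were tested in R 4.3.3 with quasi-likelihood F-tests of edgeR 4.0.16 after TMM scaling, adjusted by Benjamini-Hochberg and called under 0.05. Time was tested within each genotype and over both with genotype as a term. The remaining tests used all 24 libraries. Levels are TMM-scaled CPM, divided by merged exon length where genes are compared. Log2 CPM used a prior count of 2. Correlations were tested by two-sided permutation with 100000 resamples. The functions were tested on simulated counts. Alternatives used DESeq2 1.42.0, limma 3.58.1, other scalings and filters, a replicate block, marker covariates and libraries left out. For counts at an unadjusted p under 0.05 and of differences above 0, the share of all genes was recorded in the main fits only. The 3 mice per group limit the precision of every difference, and the depth of 2069527 to 10572612 counts limits that of Mc1r most.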

Additional observations from a re-analysis of the deposited data

Results flagged for a closer look

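Mc1r stood out because its genotype difference had opposite signs at 2 time points. In CPM every KO library was above every WT library at ZT13, as in 2.04% of all genes. At ZT7 every KO library was below, as in 3.83%. The log2 difference, RPE Bmal1 KO minus RPE Bmal1 WT, was 1.89 at ZT13 and -1.66 at ZT7, which are 3.54 apart. The edgeR interaction test over all 4 time points had an unadjusted p under 0.05 and an adjusted p = 1.00. The counts behind these values were 1 to 18 reads per library. At ZT7 the reads were not apart, since both genotypes had a library with 3 reads.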

How the results depend on the processing

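In 36 alternatives, 12 of settings and 24 that each left out a library, the 9 counts of pigment genes called stayed at 0 except with DESeq2, where 1 gene, Dct, was called over time in both genotypes (adjusted p = 0.0356). Of 1908 values of single genes, 1900 kept the call and, for genotype differences, the sign, while 7 changed sign and 1 gained a call. The time and interaction p values have no sign. The lowest adjusted p among these results in the main fits was 0.75 (edgeR, Dct over both genotypes), so a kept call says little. Without the receptor-rich libraries the averaged genotype difference changed sign for Tyr (-0.14), Tyrp1 (-0.028), Dct (-0.016), Pmel (-0.17), Oca2 (-0.067) and Gpr143 (-0.0050). For Mc1r it ranged from -0.037 to 0.32 with single libraries left out, and was below 0 only without replicate 1 of RPE Bmal1 KO ZT1. The cause was not tested. At an unadjusted p under 0.05 that difference had 0 of 10 genes, but 2 with library size alone and 4 with a linear model on unlogged CPM. Counts over all genes moved more. Over time in RPE Bmal1 WT 0 genes were called, but 24 with DESeq2 and 789 with no filter on low counts; in RPE Bmal1 KO 2, but 50 and 60; over both genotypes 9, but 78 with DESeq2, 19 without the filter and 2 with a linear model on unlogged CPM. Single libraries moved these counts to 13 for WT (without replicate 2 of ZT1), 24 for KO (without replicate 1 of ZT1) and 0 for KO (without replicate 2 of ZT1 or replicate 1 or 2 of ZT7), and to 61 over both genotypes (without replicate 3 of KO ZT7). At ZT1 118 were called without the filter. For the averaged genotype difference 319 genes were called without replicate 2 of RPE Bmal1 WT ZT13, and 0 otherwise but for 1 without the filter. The counts by time of the highest mean and by overlap were recomputed under alternatives chosen after seeing the data, and with library size alone 7 of 10 genes had every RPE Bmal1 KO library above every RPE Bmal1 WT library at ZT13, against 6.63%. Replicate numbers were not taken as pairs in the main fits. The correlation of same-numbered deviations had a mean of 0.13 (-0.42 to 0.69), against -0.06 (-0.67 to 0.52) for different numbers. By mean correlation 14 of 24 libraries were closest to their own number, and all 5 receptor-rich libraries are replicate 1. What the numbers share was not tested. With the replicate block 46 genes were called over time in RPE Bmal1 KO, against 2 without it, and 0 of the 10 were among them. At an unadjusted p under 0.05 in that test there were 5 of 10 pigment genes with the block. Without it there was 1 of 10, against 2.06% of all genes. The share of all genes with the block was not recorded, so this rise was not set against that of all genes.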
